A study of Mus musculus with 9 samples.

Results

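The genes described here were 10 genes of the osteoclast and of the RANKL axis that controls its formation, followed in RNAseq of the mouse embryonic skull at E14.5. They were chosen by name, though with earlier results of these data known. They were found by Ensembl identifier in a table of 43548 identifiers. Of the 10 genes, 7 had a mean FPKM of at least 0.5 over the 9 libraries and were tested among 18714 genes: Tnfsf11, Tnfrsf11a, Tnfrsf11b, Acp5, Ctsk, Mmp9 and Atp6v0d2. The other members, Oscar, Dcstamp and Ocstamp, lay below that level. FPKM are fragments per kilobase of transcript scaled to the mapped total of the library. Levels of different genes can be set side by side only roughly, since their slope on exon length differed between libraries, as given below.

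There were 3 libraries in each of 3 groups: MCAGF8 cranial vault, control cranial vault and control cranial base. MCAGF8 embryos carried Msx2-Cre, which is active in the surface ectoderm of the head and not in the mesenchyme of the skull, together with CAGF8, a Rosa26 allele that makes Fgf8b once Cre has removed a stop cassette. The controls had no Cre, are labelled wildtype, and by the breeding described also inherited the silent CAGF8 allele. Embryos were of mixed strain on an outbred Black Swiss background. Vault tissue was what lay between the peeled skin and the brain, and the base was dissected as the cartilaginous floor of the skull of control embryos. For a library, RNA of 3 tissue samples was combined, which makes 9 samples a group and hides how single embryos vary, and whether vault and base pools of the controls came from the same embryos is not stated.

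The cartilage markers did not bear out the name of the base in every library. Col2a1, the main collagen of cartilage, was at 163, 2292 and 268 FPKM in base replicates 1 to 3, beside 373 to 462 FPKM in the control vault, and Acan, the cartilage proteoglycan, was at 12.7, 240.5 and 26.5 FPKM, beside 32.8 to 42.8 FPKM. So base replicates 1 and 3 lay below every control vault library in both, and only replicate 2 lay above. Col10a1, the collagen of hypertrophic cartilage, was higher in all 3 base libraries (74.2 to 658 FPKM) than in the control vault (0.945 to 2.05 FPKM). The comparisons with the base are therefore also given with replicate 2 as the only base library, a fit that assumes that a lone library varies like the other groups.

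Osteoclasts are large multinucleated cells of the monocyte and macrophage lineage that resorb bone and mineralized cartilage. Their precursors need the ligand RANKL (Tnfsf11), which is made by osteoblasts, stromal cells and hypertrophic chondrocytes and binds the receptor RANK (Tnfrsf11a) on the precursor. Osteoprotegerin, or OPG (Tnfrsf11b), is a secreted decoy receptor that takes up RANKL. RANK signals through TRAF6, NF-kB and AP-1 to the transcription factor NFATc1, which switches on the fusion and resorption genes.

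The promoters of 2 resorption genes are shown with that of the ligand, as a description. RefSeq promoters on GRCm38.p6, from 250 bases before to 50 bases after a transcription start, were matched for 5 of the 10 genes and gave 7 starts: 3 for Acp5 and 1 each for Ctsk, Oscar, Tnfrsf11a and Tnfsf11. Mmp9, Dcstamp, Ocstamp, Tnfrsf11b and Atp6v0d2 had no entry. Each is written 5′ to 3′ on the strand of its gene, and capitals mark the letters GGAAA, the core that NFAT factors bind, or their complement TTTCC. The stretches are chr3:95498960-95499259 (plus strand) for Ctsk, chr9:22130549-22130848 (minus strand) for the start of Acp5 that lies farthest downstream, and chr14:78307994-78308293 (minus strand) for Tnfsf11.
Ctsk: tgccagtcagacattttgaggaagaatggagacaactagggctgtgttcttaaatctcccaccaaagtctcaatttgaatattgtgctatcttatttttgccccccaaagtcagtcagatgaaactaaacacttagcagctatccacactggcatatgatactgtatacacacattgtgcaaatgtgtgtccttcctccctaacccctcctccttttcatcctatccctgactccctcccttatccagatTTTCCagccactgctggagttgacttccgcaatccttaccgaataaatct
Acp5: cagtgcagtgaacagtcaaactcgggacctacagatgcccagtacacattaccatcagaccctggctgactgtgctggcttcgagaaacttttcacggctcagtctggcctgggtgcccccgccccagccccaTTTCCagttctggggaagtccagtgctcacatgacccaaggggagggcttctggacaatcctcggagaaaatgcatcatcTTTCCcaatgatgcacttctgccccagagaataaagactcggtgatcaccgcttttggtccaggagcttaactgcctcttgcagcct
Tnfsf11: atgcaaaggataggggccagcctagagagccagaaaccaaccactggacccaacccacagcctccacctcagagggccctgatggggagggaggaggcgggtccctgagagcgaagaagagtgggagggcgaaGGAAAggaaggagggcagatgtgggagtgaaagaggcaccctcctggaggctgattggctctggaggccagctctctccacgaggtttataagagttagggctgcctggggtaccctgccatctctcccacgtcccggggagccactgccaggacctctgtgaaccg
Ctsk held 1 such match, at its start, this Acp5 start held 2 and Tnfsf11 held 1. The Acp5 starts not shown held 1 each. In all, 6 of the 7 starts held at least 1 match, Tnfrsf11a being without one, and so did 61.3% of 32851 mouse promoters of the same length. The AP-1 motif TGANTCA, searched on both strands, matched none of the 7 starts and 7.81% of all promoters. A match is a match of letters only, and both motifs are short.

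The ligand was low in every group, and its receptor and decoy had higher group means. Tnfsf11 (ENSMUSG00000022015, chr14:78277445-78308043, GRCm38) was at 1.15, 0.498 and 0.963 FPKM in control vault replicates 1 to 3, at 0.477, 0.464 and 0.689 FPKM in the MCAGF8 vault and at 1.12, 1.03 and 1.94 FPKM in the control base. All 3 base libraries lay above all 3 MCAGF8 libraries, and the control vault overlapped with both. Means were 0.870 ± 0.336 FPKM in the control vault, 0.543 ± 0.126 FPKM in the MCAGF8 vault and 1.36 ± 0.505 FPKM in the base (SD, n = 3), so the base mean was 2.51-fold the MCAGF8 mean.

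Tnfrsf11a (ENSMUSG00000026321, chr1:105780718-105847981) was at 1.56, 1.78 and 1.62 FPKM in the control vault, at 0.871, 1.77 and 1.30 FPKM in the MCAGF8 vault and at 1.60, 1.21 and 1.61 FPKM in the base. The receptor overlapped in every pair of groups, and in base replicate 3 it lay below the ligand. Tnfrsf11b (ENSMUSG00000063727, chr15:54250619-54278484) was at 5.66, 6.45 and 4.97 FPKM in the control vault, at 4.84, 4.01 and 6.07 FPKM in the MCAGF8 vault and at 4.67, 9.85 and 4.94 FPKM in the base. The decoy overlapped in every pair too, and base replicate 2 stood highest by itself.

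**Figure D1:**
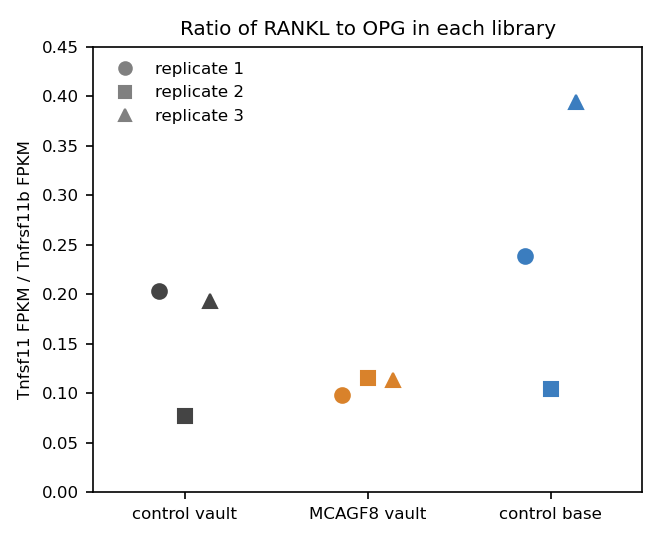
Ratio of Tnfsf11 (RANKL) to Tnfrsf11b (OPG) FPKM in each of the 9 libraries, with a point for each library. The MCAGF8 vault libraries lie between 0.0985 and 0.116, inside the span of the control vault (0.0772 to 0.203), and base replicate 3 is highest at 0.394.

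OPG transcripts outnumbered RANKL transcripts per length in all 9 libraries. The ratio of Tnfsf11 to Tnfrsf11b was 0.203, 0.0772 and 0.194 in the control vault, 0.0985, 0.116 and 0.113 in the MCAGF8 vault, and 0.239, 0.105 and 0.394 in the base. The MCAGF8 libraries were the most alike, and in both control tissues replicate 2 had the lowest ratio. The groups overlapped in every pair, and the ratio is given without a test.

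The genes of precursor fusion and co-stimulation were close to the floor. Oscar, a collagen-binding co-stimulatory receptor (ENSMUSG00000054594), was at 0.0367, 0.0705 and 0.0299 FPKM in the control vault, at 0.128, 0 and 0.0366 FPKM in the MCAGF8 vault and at 0.289, 0.238 and 0.241 FPKM in the base. All 3 base libraries were above all 6 vault libraries. Dcstamp, which encodes the DC-STAMP protein needed for cell fusion (ENSMUSG00000022303), was at 0.424, 0 and 0.161 FPKM in the control vault, at 0, 0.251 and 0 FPKM in the MCAGF8 vault and at 0.0964, 0.0749 and 0.754 FPKM in the base. Ocstamp, its partner in fusion (ENSMUSG00000027670), was at 0.203, 0.0326 and 0.263 FPKM in the control vault, at 0.0296, 0.369 and 0.0338 FPKM in the MCAGF8 vault and at 0.0313, 0.0129 and 0.382 FPKM in the base. Both fusion genes overlapped in every pair of groups. Calcr, the calcitonin receptor of mature osteoclasts, and Siglec15, a receptor of late fusion, were as low, at 0.0627 to 0.340 FPKM and 0 to 0.233 FPKM over the 9 libraries.

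Of the resorption genes, Ctsk, Acp5 and Mmp9 were far higher and Atp6v0d2 was not. Ctsk (ENSMUSG00000028111, chr3:95499256-95509362) encodes cathepsin K, the protease that cuts bone collagen and that some stromal cells also make, and was at 168, 148 and 259.7 FPKM in the control vault. It was at 95.8, 146 and 112 FPKM in the MCAGF8 vault and at 88.6, 36.4 and 105 FPKM in the base. Every control vault library lay above every MCAGF8 and every base library, although control vault replicate 2 and MCAGF8 replicate 2 were almost level. The control vault mean, 192 ± 59.6 FPKM, was 1.62-fold the MCAGF8 mean of 118 ± 25.7 FPKM and 2.50-fold the base mean of 76.8 ± 36.0 FPKM (SD, n = 3).

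Acp5 (ENSMUSG00000001348, chr9:22126727-22135711) encodes TRAP, the acid phosphatase used to stain osteoclasts, found in some macrophages too, and was at 37.0, 32.4 and 36.8 FPKM in the control vault. It was at 15.1, 33.0 and 19.8 FPKM in the MCAGF8 vault and at 12.9, 10.6 and 29.8 FPKM in the base. The base lay wholly below the control vault, while MCAGF8 replicate 2 reached into it. Acp5 overlaps 6530413G14Rik on the opposite strand, and since the use of strand in counting is not stated, reads of the pair may not have been kept apart.

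Mmp9 (ENSMUSG00000017737, chr2:164940780-164955850) encodes gelatinase B, a matrix protease of osteoclasts that neutrophils also store, and was at 12.9, 3.41 and 14.9 FPKM in the control vault. It was at 14.7, 36.7 and 13.1 FPKM in the MCAGF8 vault and at 7.94, 13.1 and 23.6 FPKM in the base. The groups overlapped, and replicate 2 was the lowest control vault library and the highest MCAGF8 library. Beside this, a list of 8 neutrophil genes summed to 34.7, 14.4 and 59.3 FPKM in control vault replicates 1 to 3. The sums were 28.5, 32.3 and 31.3 FPKM in the MCAGF8 vault and 503, 116 and 113 FPKM in the base. The part of neutrophils in Mmp9 was not tested.

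Atp6v0d2 (ENSMUSG00000028238, chr4:19876841-19922605) encodes the d2 subunit of the osteoclast proton pump, which also takes part in fusion, and was at 0.826, 0.120 and 1.10 FPKM in the control vault. It was at 0.295, 0.475 and 0.0250 FPKM in the MCAGF8 vault and at 1.25, 0.667 and 1.36 FPKM in the base. All base libraries lay above all MCAGF8 libraries, and the control vault spanned nearly the whole range. The mean of the base was 4.12-fold that of the MCAGF8 vault. These levels are low, and the difference was not called. In whole tissue, a difference in osteoclast number, in RNA per osteoclast or in other cells cannot be told apart.

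**Figure D2:**
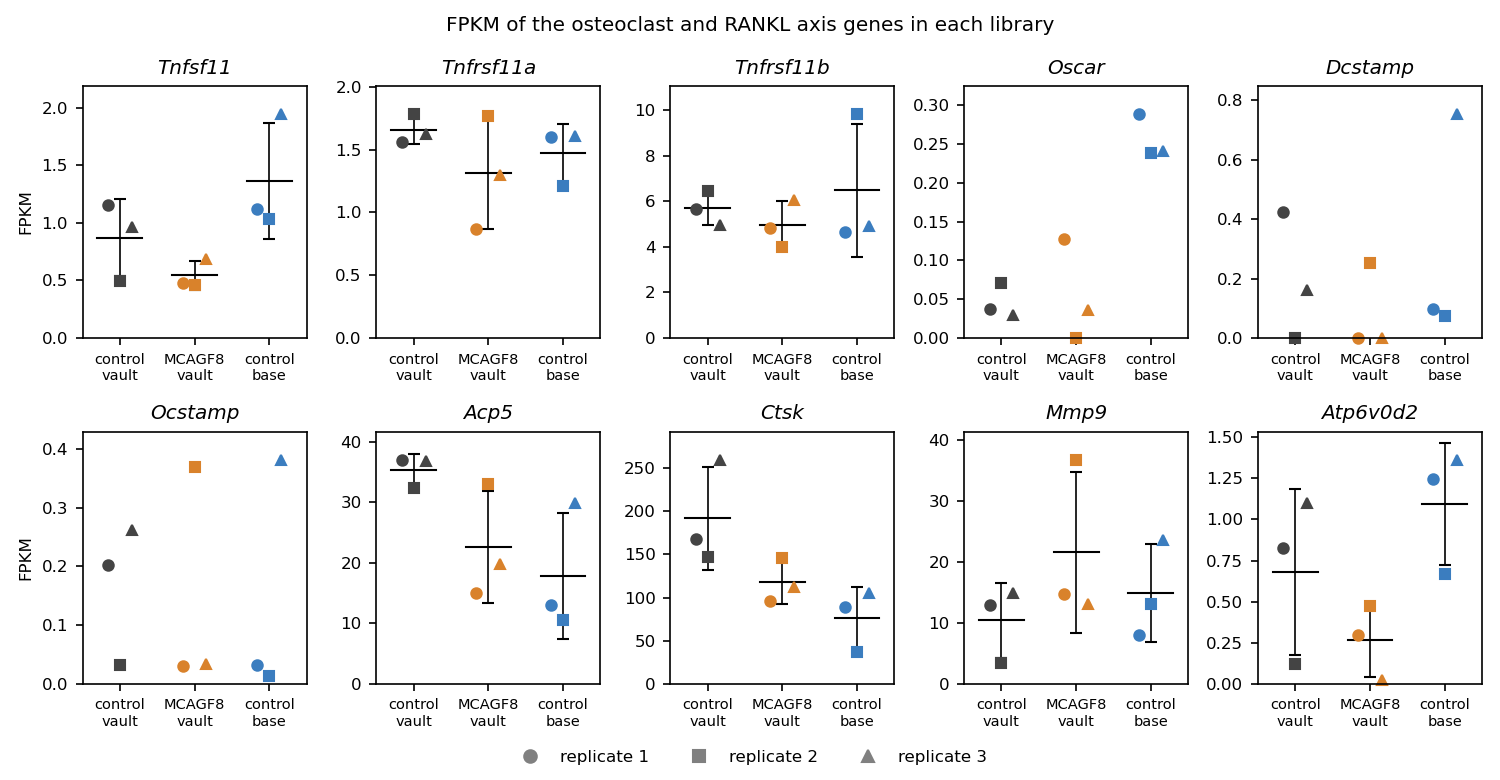
FPKM of each of the 10 genes in each of the 9 libraries, 1 panel per gene with its own linear axis from 0; marker shape gives the replicate, and for the 7 tested genes a line gives the group mean and whiskers the SD of 3 libraries. Ctsk and Acp5 are highest in the control vault, Tnfsf11 and Atp6v0d2 are higher in the base than in the MCAGF8 vault, and Oscar, Dcstamp and Ocstamp stay under 1 FPKM.

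The first comparison asked whether ectodermal FGF8 was followed by a change of osteoclast genes in the vault, and 0 of the 7 tested genes were called between the MCAGF8 vault and the control vault. A call by limma needed both p under 0.05 before adjustment and an adjusted p (Benjamini-Hochberg) under 0.1, on the scale log2(FPKM + 1), which understates the change of low genes. In the fit of all 9 libraries none of the 7 reached an unadjusted p under 0.05, with limma or with a linear model without moderation. Over all 18714 genes, 0.604% were called and 6.34% had such a p. Ctsk was the 1 gene of 7 whose groups did not overlap, as were 19.2% of all genes. When limma was fitted to the 6 vault libraries alone, Acp5 had an unadjusted p of 0.0400 (adjusted p = 0.354) and Ctsk one of 0.0343 (adjusted p = 0.336), in a fit where 13.2% of all genes had a p under 0.05 and 0 of the 7 were called.

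Of the 7 genes, 6 had a lower estimate in the MCAGF8 vault and Mmp9 a higher one. The median log2 difference was -0.26, against -0.01 over all genes. The difference was -0.69 (SE 0.38, 95% interval -1.54 to 0.15) for Acp5, with an adjusted p of 0.930 by limma. It was -0.67 (SE 0.39, -1.54 to 0.19) for Ctsk, with an adjusted p of 0.957. For Mmp9 it was 1.03 (SE 0.57, -0.25 to 2.32), with an adjusted p of 0.937, and it fell to 0.45 without control vault replicate 2 and to 0.59 without MCAGF8 replicate 2. With 1 library left out, Acp5 ranged from -0.99 to -0.45 and Ctsk from -0.84 to -0.44. The axis genes were nearer to 0, at -0.26 (-0.80 to 0.27) for Tnfsf11, -0.22 (-0.71 to 0.27) for Tnfrsf11a and -0.17 (-0.81 to 0.47) for Tnfrsf11b. Atp6v0d2 was at -0.38 (-1.03 to 0.27). All 7 intervals hold 0, and a difference of the sizes they span could not be told from none with 3 pools a group.

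The second comparison set the MCAGF8 vault beside the control base, since the study took the base as its reference for skull cartilage. Again 0 of 7 genes were called by limma, with 8.39% of all genes called. Tnfsf11 and Atp6v0d2 reached an unadjusted p under 0.05, 2 of 7 beside 19.6% of all genes, also in the linear model without moderation. They were also the 2 of 7 whose groups did not overlap, beside 21.9% of all genes. Tnfsf11 was at -0.60 (SE 0.24, 95% interval -1.13 to -0.06) in the MCAGF8 vault against the base, with an adjusted p of 0.205 by limma. Atp6v0d2 was at -0.73 (SE 0.29, -1.37 to -0.08), with the same adjusted p of 0.205. Without base replicate 2, the library high in cartilage genes, Tnfsf11 was called at -0.70 (adjusted p = 0.0955) and Atp6v0d2 at -0.88 (adjusted p = 0.0840), in a fit that called 24.5% of all genes. With replicate 2 as the only base library, Tnfsf11 was at -0.40 (adjusted p = 0.484) and Atp6v0d2 at -0.41 (adjusted p = 0.600).

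The other tested genes had adjusted p-values from 0.337 to 0.838 against the base, and the 7 genes had a median log2 difference of -0.11, against -0.07 over all genes. Ctsk was at 0.73 (-0.14 to 1.59), and with replicate 2 as the only base library it was called at 1.65 (adjusted p = 0.0723 by limma), where 5.26% of all genes were called. Mmp9 was at 0.48 (-0.81 to 1.76) and Acp5 at 0.40 (-0.45 to 1.24). Tnfrsf11b was at -0.27 (-0.92 to 0.37), at 0.03 without base replicate 2 and at -0.87 with it as the only base library. Tnfrsf11a was at -0.11 (-0.60 to 0.38), and this sign turned with quantile normalization, with a common sum, without MCAGF8 replicate 1, with the exon length covariate and with replicate 2 as the only base library.

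The third comparison was between the base and the vault of controls, which sets the range of these genes without Cre. Here too 0 of 7 genes were called by limma, beside 3.06% of all genes. Ctsk and Acp5 reached an unadjusted p under 0.05, 2 of 7 beside 12.8% of all genes, also without moderation. The same pair were the 2 of 7 without overlap between groups, beside 15.5% of all genes. Ctsk was at -1.40 in the base against the vault (SE 0.39, 95% interval -2.26 to -0.54), with an adjusted p of 0.124 by limma. Acp5 was at -1.09 (SE 0.38, -1.93 to -0.24), with an adjusted p of 0.230. With replicate 2 as the only base library both were called, Ctsk at -2.32 (adjusted p = 0.0307 by limma) and Acp5 at -1.64 (adjusted p = 0.0964), in a fit that called 4.61% of all genes.

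The call for Ctsk turned on the scaling: its adjusted p was 0.0607 with quantile normalization, 0.0372 with FPKM rescaled to a common sum and 0.0985 with a common median, where 3.35%, 2.44% and 3.88% of all genes were called. With a common sum Ctsk was also called higher in the MCAGF8 vault than in the base, with an adjusted p of 0.0835, beside 8.58% of all genes. Acp5 was called without base replicate 3, at -1.51 with an adjusted p of 0.0748, beside 2.07% of all genes. Macrophage genes, which mark the lineage of osteoclasts, summed to 321 to 410 FPKM in the control vault, 300.2 to 485 FPKM in the MCAGF8 vault and 166 to 406 FPKM in the base, and their part in these differences was not tested. The median of the 7 genes was 0.10, against 0.07 over all genes, with 4 estimates higher in the base and 3 lower. Tnfsf11 was at 0.33 (-0.20 to 0.87), Atp6v0d2 at 0.35 (-0.30 to 1.00), Mmp9 at 0.56 (-0.73 to 1.84), Tnfrsf11b at 0.10 (-0.54 to 0.74; 0.70 with replicate 2 as the only base library) and Tnfrsf11a at -0.11. The signs of Mmp9 and Tnfrsf11b each turned when 1 library was left out.

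**Figure D3:**
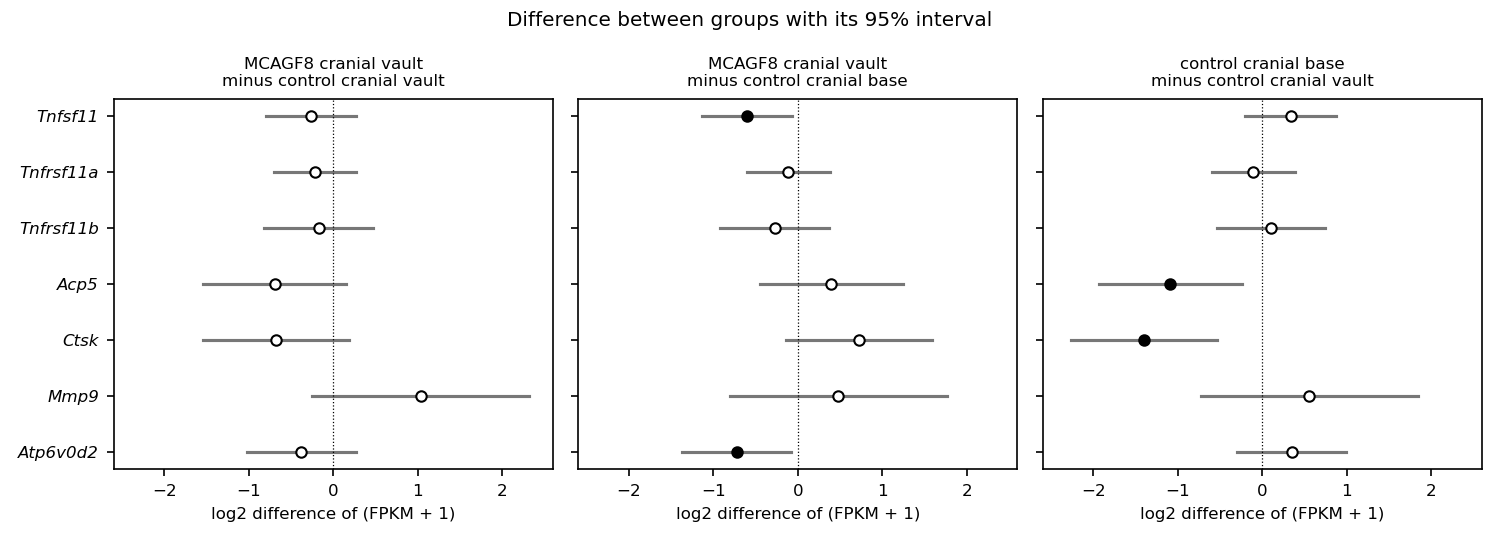
Difference in log2(FPKM + 1) between groups for the 7 tested genes, with points for the estimate and bars for the 95% interval, in the 3 comparisons. The intervals that leave out 0 are those of Tnfsf11 and Atp6v0d2 in the MCAGF8 vault against the base and those of Acp5 and Ctsk in the base against the vault, and none of the 4 was called.

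With no filter on low values, Oscar entered the fit and was called in both comparisons with the base. It was at -0.25 in the MCAGF8 vault against the base (adjusted p = 0.0418 by limma) and at 0.26 in the base against the control vault (adjusted p = 0.0634), in a fit that called 5.14% and 1.72% of all genes. Its highest level was 0.289 FPKM, a level close to 0 at an unknown depth. Dcstamp and Ocstamp were not called in that fit.

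Libraries of 1 group were not alike in osteoclast genes, and the way they differed was shared by several members. Acp5, Ctsk, Mmp9, Atp6v0d2, Dcstamp and Ocstamp were lowest in replicate 2 of the control vault. All of them were highest in replicate 2 of the MCAGF8 vault and in replicate 3 of the base. They are listed together because they shared this order, and Dcstamp and Ocstamp stayed under 1 FPKM. Of the other members, Oscar was highest in control vault replicate 2 and base replicate 1 and lowest in MCAGF8 replicate 2. Tnfrsf11a was highest in MCAGF8 replicate 2 and base replicate 3, but also in control vault replicate 2. The shared order was noticed in the values and is given without a test. It was found in 4 of the 7 tested members and in 9.59% of all tested genes. In the lists, it was found in 9 of 11 osteoblast genes, 4 of 9 acid secretion genes, 3 of 11 stromal regulators and 1 of 11 differentiation genes. It was also found in 1 of 6 cartilage genes, a list of Col10a1, Mmp13, Ihh, Col2a1, Acan and Sox9. The whole order was found in 0 of 11 macrophage genes, 0 of 14 RANK signalling genes and 0 of 7 neutrophil genes. The macrophage list did share its MCAGF8 part, with sums of 324, 485 and 300 FPKM in MCAGF8 replicates 1 to 3. Its sums were 321, 410 and 387 FPKM in the control vault and 406, 166 and 313 FPKM in the base.

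The osteoblast genes that shared the order varied within groups to unlike degrees. Ibsp, which encodes bone sialoprotein, was at 1487, 679 and 1527 FPKM in the control vault, at 11.5, 50.7 and 12.5 FPKM in the MCAGF8 vault and at 189, 199 and 638 FPKM in the base. Sp7, the osteoblast transcription factor osterix, was at 105, 55.4 and 123 FPKM, at 17.5, 20.6 and 16.0 FPKM and at 37.4, 26.9 and 80.5 FPKM in the same groups. Both had the extreme library of each group in common with Acp5 and Ctsk. Between the MCAGF8 and control vault, 7 of the 11 osteoblast genes were called lower by limma, 2 to 8 with 1 library left out and 0 without moderation. Over all genes 0.604% were called by limma.

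Tnfrsf11b ran the other way in the vault libraries: it was highest in control vault replicate 2 and lowest in MCAGF8 replicate 2. Tnfsf11 shared the lowest control vault library and the highest base library, but its lowest MCAGF8 library was replicate 2. Skeletal muscle genes also set libraries apart, summing to 784, 5235 and 1445 FPKM in control vault replicates 1 to 3, 15.7 to 157 FPKM in the MCAGF8 vault and 1516 to 10806 FPKM in the base. The slope of expression on exon length differed between libraries as well, from -0.279 log2 units per doubling of length in base replicate 1 to 0.149 in base replicate 2. In the MCAGF8 vault it was 0.134, -0.0379 and 0.137 in replicates 1 to 3. The FPKM of these MCAGF8 libraries summed to 847561, 1041401 and 849053. The part of muscle, of length and of the FPKM sum in the order was not tested.

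**Figure D4:**
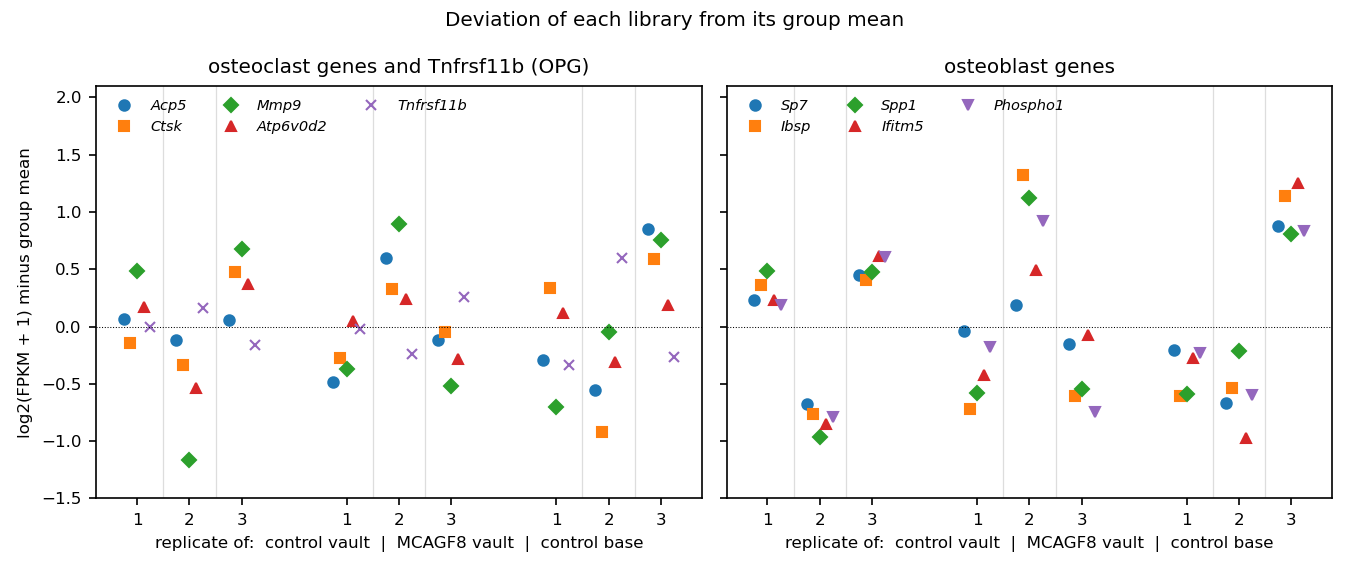
Deviation of each library from its group mean in log2(FPKM + 1), for 4 resorption genes and Tnfrsf11b (left) and 5 osteoblast genes (right); points are libraries, set out by group and replicate. The resorption and osteoblast genes are lowest in control vault replicate 2 and highest in MCAGF8 replicate 2 and base replicate 3, and Tnfrsf11b does not follow them.

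The wider osteoclast programme was read from lists of genes that act beside the 10. Of 9 genes of acid secretion and resorption, 0 were called between the vaults by limma, with 0 also at an unadjusted p under 0.05 and 0 called without moderation, and the median log2 difference was -0.05. The estimates ran from -0.55 for Ckb, brain-type creatine kinase, to 0.30 for Tcirg1, the a3 subunit of the proton pump. Against the base 1 of 9 was called lower, near the 8.39% of all genes called in that comparison. It was Snx10, a sorting nexin needed for osteoclast acid secretion. Its levels were 6.54, 7.21 and 7.03 FPKM in the MCAGF8 vault and 12.3, 12.8 and 22.4 FPKM in the base. All base libraries were above all MCAGF8 libraries, with a difference of -1.04 (SE 0.25, adjusted p = 0.0484 by limma). Over the alternatives its adjusted p ran from 0.0264 to 0.189, and the call was lost in 8 of them, among them each fit without an MCAGF8 library (0.125 to 0.189) and the fit with base replicate 2 as the only base library (-0.80, 0.167). Plekhm1, a vesicle adaptor, had the highest estimate of the list against the base, at 0.46. In the base against the control vault 0 of 9 were called, by limma or without moderation, and 1, Snx10 at 0.99, had an unadjusted p under 0.05, and Plekhm1 was lowest at -0.41.

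The differentiation list held 13 genes, of which 11 were tested. Between the vaults 0 of 11 were called by limma, 0 were called without moderation and 0 had an unadjusted p under 0.05, and the median was -0.13, from -0.52 for Tyrobp, the DAP12 adaptor, to 0.48 for Nfatc1. Against the base 2 of 11 were called higher in the MCAGF8 vault, beside 8.39% of all genes called, and the median was 0.33. Nfatc1, the factor that RANK signalling induces and that endothelial and skeletal cells also express, was at 37.2, 59.1 and 33.1 FPKM in the MCAGF8 vault, at 28.6, 27.2 and 33.7 FPKM in the control vault and at 12.9, 22.1 and 12.4 FPKM in the base. Both vault groups lay wholly above the base. The MCAGF8 vault exceeded the base by 1.40 (SE 0.28, adjusted p = 0.0214 by limma, 0.00622 to 0.245 over the alternatives), and the call was lost with replicate 2 as the only base library, at 0.89 (0.245). Csf1r, the M-CSF receptor of macrophages and osteoclast precursors, was at 32.4, 46.8 and 28.6 FPKM in the MCAGF8 vault, at 25.3, 31.9 and 27.4 FPKM in the control vault and at 13.2, 10.6 and 16.2 FPKM in the base. Its libraries were likewise higher in both vaults than in the base.

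The difference of Csf1r was 1.35 between the MCAGF8 vault and the base (SE 0.23, adjusted p = 0.0122 by limma, 0.00583 to 0.0610 over the alternatives). It was -1.04 in the base against the control vault (SE 0.23, adjusted p = 0.0662 by limma, 0.0200 to 0.221). There Csf1r was the 1 called gene of the list, beside 3.06% of all genes, and the median was -0.54. That call was lost in 8 alternatives, among them every fit that left out a control vault library (0.163 to 0.221). The list's other extreme was Slc9b2, a sodium and proton exchanger of osteoclasts, at -0.52 against the base and 0.53 in the base against the control vault. Of the macrophage list, 4 of 11 were called higher in the MCAGF8 vault than in the base (Cd68, Adgre1, Cx3cr1 and Mrc1), beside 8.39% of all genes called. In the base 2 of 11 were called lower than in the control vault (Adgre1 and Mrc1), beside 3.06% of all genes. With 1 library left out, the first count was 0 to 4 (0 without MCAGF8 replicate 1 or 3) and the second 0 to 2 (0 without control vault replicate 1 or 2), with 0 of 11 called between the vaults by limma, without moderation or at an unadjusted p under 0.05. The other genes of the list did not pass, and Lyz2 and Aif1 had lower estimates in the MCAGF8 vault than in the base (-0.14 and -0.28). With replicate 2 as the only base library, the counts were 2 and 1 of 11.

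Few differences were seen in the signalling genes downstream of RANK. Of 15, 14 were tested and 0 were called in any comparison, by limma or without moderation, and the 1 with an unadjusted p under 0.05 was Gab2, an adaptor that RANK recruits, at -0.58 in the MCAGF8 vault against the base. The medians were 0.06 between the vaults, 0.15 against the base and -0.13 in the base against the control vault. Estimates ran from -0.19 for Map3k14, the NF-kB-inducing kinase, to 0.20 for Ikbkb between the vaults. The highest against the base was Rela, an NF-kB subunit, at 0.40, and in the base against the control vault they ran from -0.31 for Map3k14 to 0.48 for Gab2.

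The stromal regulators, which act from outside the osteoclast, held called genes. Of 13, 11 were tested, and 1 was called higher in the MCAGF8 than in the control vault, beside 0.604% of all genes. This was Wnt5a, a Wnt ligand that acts on precursors through Ror2 and has many other roles in skull growth. It was at 92.3, 74.4 and 72.4 FPKM in the MCAGF8 vault, at 25.7, 39.0 and 23.8 FPKM in the control vault and at 26.6, 36.8 and 29.4 FPKM in the base. Every MCAGF8 library exceeded every control library. The difference was 1.43 from the control vault (SE 0.22, adjusted p = 0.0508 by limma, 0.0277 to 0.284 over the alternatives) and 1.34 from the base (SE 0.22, adjusted p = 0.0114, 0.00713 to 0.136), the latter lost with replicate 2 as the only base library, at 1.08 (0.136). The call against the control vault was lost without control vault replicate 1 or 3 and without any 1 MCAGF8 library (0.132 to 0.284), with a common sum (0.117), with a replicate block (0.170), without moderation (0.241) and at a threshold of 0.05.

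Il34, the other ligand of CSF1R, was at 6.76, 6.96 and 5.83 FPKM in the MCAGF8 vault, at 1.98, 3.71 and 4.61 FPKM in the control vault and at 2.57, 1.10 and 2.15 FPKM in the base. The MCAGF8 libraries were the highest 3 of 9. Against the base the difference was 1.39 (SE 0.30, adjusted p = 0.0302 by limma, 0.00756 to 0.128), and the call was lost without MCAGF8 replicate 1 (0.128) or 2 (0.105). Vdr, the vitamin D receptor through which stromal cells raise RANKL, had the lowest estimate in the MCAGF8 vault, at -1.29 from the control vault and -1.10 from the base, and was not called. In the base against the control vault 0 of 11 were called by limma and 1 had an unadjusted p under 0.05, with estimates from -0.66 for Sema3a to 0.28 for Wnt16. The list medians were 0.08, 0.15 and -0.27 in the 3 comparisons.

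Markers of other cells in the tissue differed between groups, and their part in the values above was not tested. Between the vaults, limma called 5 of 6 skeletal muscle genes lower in MCAGF8 and Krt5 of the 6 epidermis genes higher. It called none of the neutrophil, mast cell, cartilage, erythroid and endothelium genes. Among the 6 cartilage genes, Col2a1, Acan and Sox9 had means 2.26-, 2.47- and 2.35-fold those of the control vault. The other 3, Col10a1, Mmp13 and Ihh, had lower means in MCAGF8. Over all genes 0.604% were called. All 6 epidermis genes had higher estimates in MCAGF8 (median 3.46), and 5 had an unadjusted p under 0.05 by limma, beside 6.34% of all genes. They summed to 343 to 861 FPKM in the MCAGF8 vault, 9.34 to 83.7 FPKM in the control vault and 46.3 to 598 FPKM in the base. Without moderation 0 genes of any list were called between the vaults. Against the base, the MCAGF8 vault had lower Col10a1, Mmp13 and Ihh, which mark hypertrophic chondrocytes, lower S100a8, S100a9 and Retnlg of neutrophils and 6 of 6 muscle genes lower. It had higher Cdh5, Kdr and Tek of endothelium and higher Hba-a2 and Alas2 of erythroid cells. In the base against the control vault S100a8, Retnlg and Col10a1 were higher and Tek was lower. Osteoblast genes were called lower in 4 of 11 and higher in 1 of 11 against the base, and lower in 3 of 11 in the base against the control vault. Over all genes 8.39% were called against the base and 3.06% in the base against the control vault.

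The genes whose profile over the 9 libraries was most like that of a member were sought for Acp5, Tnfsf11 and Tnfrsf11b among about 13800 genes with a mean of at least 5 FPKM in the highest group. These are correlations of log2(FPKM + 1) over 9 libraries in 3 groups, given as a description. Acp5 was most like Chaf1a (r = 0.975), Gtse1 (0.964), Scara3 (0.949), Fzd1 (0.947) and Bscl2 (0.946). Tnfsf11 was most like Mgat5b (0.960), Shc2 (0.959), Cntn4 (0.955), Chga (0.950) and Sox2 (0.950). Tnfrsf11b was most like Rnf219 (0.986), Plod2 (0.975), Phactr2 (0.965), Plagl1 (0.956) and Atp2c1 (0.954).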

How the data were processed

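RNAseq was available for 9 libraries, 3 per group, each a pool of 3 tissue samples. The authors prepared stranded mRNA libraries, read them from a single end, aligned with gSNAP and ran Cufflinks, whose FPKM, 1 value per Ensembl gene and library, were deposited. Genome build, annotation and program versions: not given in the sources used here. FPKM summed to 793249 to 1315981 per library, and since no counts are given, read depth is unknown, and neither counting intervals nor floors are stated.

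The 63 repeated rows were added to the other row of their identifier, and 9 genes with placeholder cells were left out. Genes averaging 0.5 FPKM or more, 18714 of them, were fitted on log2(FPKM + 1) with limma 3.58.1 in R 4.3.3 (eBayes with a trend, 1 mean per group, all 9 libraries, two-sided), and p-values were adjusted over all of them. The libraries were taken as independent, and p-values measure the spread between pools. The fit was tested on data simulated with noise drawn independently for each gene and library. This leaves out the deviations that genes of a library share, so it does not show how the fit behaves with them. Both comparisons with a group share its 3 libraries, so the 3 comparisons are not independent. Alternatives were the pseudocount, the filter, the scaling, the libraries fitted, a replicate block, no moderation, the row kept for repeated identifiers, the threshold, each library left out and, added after the data were seen, a covariate for how expression sloped with exon length in each library and a fit with base replicate 2 as the only base library. Gene positions (GRCm38) came from GENCODE M21 by identifier. Python 3.11.15 with numpy 2.4.6, pandas 2.3.3 and matplotlib 3.10.9 served for tables and plots.

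The members, the gene lists and the tests were chosen with earlier results of these data known, so no list is independent evidence. All 10 members are named. Of the lists, a gene is named if called in any comparison, or if it has the highest or lowest difference of a list. The latter part was used for the 4 lists of the osteoclast and its regulators only, and the osteoblast and marker lists are given by counts, sums and examples. Ibsp and Sp7 and the shared order of libraries were picked after their values were seen.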

Additional observations from a re-analysis of the deposited data

How the results depend on the processing

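The 7 tested members gave 495 differences under 24 alternatives, of which 470 kept their sign and their side of the threshold, 16 passed it and 9 turned sign. Between the vaults the number of members called was 0 in every alternative, 0 to 0 with 1 library left out. Against the base it was 1 with no filter (Oscar), 1 with a common sum (Ctsk), 1 with the slope on exon length as a covariate (Ctsk, adjusted p = 0.0419 by limma, 12.3% of all genes called), 1 with replicate 2 as the only base library (Ctsk) and 2 at an unadjusted p under 0.05 alone, and it ranged from 0 to 2 with 1 library left out. In the base against the control vault it was 1 with no filter (Oscar), with quantile normalization, a common sum, a common median and the slope covariate (Ctsk in each, adjusted p = 0.0151 by limma in the last, 8.05% of all genes called), 2 with replicate 2 as the only base library (Acp5 and Ctsk), 2 at an unadjusted p under 0.05 alone, and 0 to 1 with 1 library left out.

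Signs turned for Tnfrsf11a against the base, to 0.19 with quantile normalization, 0.0082 with a common sum, 0.0081 with the slope covariate and 0.05 with replicate 2 as the only base library, and it ranged from -0.2497 to 0.0337 with 1 library left out (the latter without MCAGF8 replicate 1). They turned for Tnfrsf11b in the base against the control vault, to -0.12 with quantile normalization and -0.20 without base replicate 2 (to 0.268 without base replicate 1), and against the base to 0.028 without base replicate 2 (-0.4398 without base replicate 1). Mmp9 in the base against the control vault ranged from -0.0282 without control vault replicate 2 to 0.9089 without base replicate 1. The cause was not tested. A common sum moved the median of all genes to 0.13 between the vaults and 0.11 against the base. Of the calls over all genes against the base, 35.5% were higher in the MCAGF8 vault, 58.7% with quantile normalization, 48.3% with a common sum and 48.5% with a common median; in the base against the control vault 60.6% were higher in the base and 37.7% with quantile normalization.

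With the replicate number as a block, 0 members were called in each comparison, and the calls over all genes went from 113 to 19, from 1571 to 918 and from 573 to 234. Whether the numbers pair the samples is not stated. Deviations from the group mean correlated from -0.549 to 0.37 between same-numbered libraries and from -0.482 to 0.563 between libraries of other numbers. Such deviations sum to 0 within a group of 3, so these values cannot tell whether pools were paired. With an adjusted threshold, calls over all genes ran from 0 to 231 between the vaults, 559 to 4580 against the base and 108 to 1507 between the control tissues. At an unadjusted p under 0.05 alone, limma gave 1186, 3675 and 2396 genes. The unknown depth limits most what can be said of Oscar, Dcstamp, Ocstamp and Atp6v0d2.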
